A study of Mus musculus with 20 samples.

Results

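Fatty acid uptake by the fat cell was described through 10 genes: Lpl, Angptl4, Cd36, Slc27a1, Acsl1, Fabp4, Fabp5, Cav1, Cav2 and Pacsin3. The rule is a list of symbols, matched through the Ensembl identifiers of the deposited counts table, and sets no threshold on measured values, although earlier results of these data were known when the list was drawn up. They are 10 of 46078 genes in the table, and all 10 passed the filter on low counts that left 21464 genes for testing. On the whole, 2 of the 10 differed between diets at an adjusted p under 0.05. Angptl4 was upregulated and Pacsin3 downregulated in adipocytes of mice on a high-fat diet (HFD) for 12 weeks. Pacsin3 was downregulated again after 25 weeks. At 12 weeks, the adjusted p of each gene was under 0.05 in 7 of 14 alternative fits. Both were still called after the short diet was followed by 8 weeks of weight loss (WL), although with adjusted p above 0.05. These later calls held in 7 (Angptl4) and 8 (Pacsin3) of 14 alternative fits. None of the 10 was called in WL after the long diet.

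Adipocytes take most of their fatty acids from triglyceride that circulates in lipoproteins. Lipoprotein lipase, the product of Lpl, is made by the adipocyte and carried to the capillary wall, where it releases fatty acids; Angptl4 encodes a secreted protein that inactivates it. The fatty acid translocase Cd36 and the transport protein Slc27a1 (FATP1) act at the cell membrane, the acyl-CoA synthetase Acsl1 traps the fatty acid inside the cell, and the binding proteins Fabp4 and Fabp5 carry it through the cytosol. Caveolae are small pits of the plasma membrane that are very abundant in adipocytes: Cav1 and Cav2 encode their coat proteins, and Pacsin3 encodes a membrane-bending F-BAR protein that associates with them.

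Ribosome-bound mRNA of adipocytes, the translatome, was measured by translating ribosome affinity purification (TRAP–seq) in epididymal adipose tissue (epiAT) of 20 male AdipoERCre x NuTRAP mice. In these mice a tamoxifen-inducible Cre, driven by the adiponectin promoter, labels the ribosomes of fat cells with GFP, and beads against GFP then pull these ribosomes down; every mouse, controls included, was given tamoxifen before the diets began. In the short arm, C mice were kept on low-fat chow to 18 weeks of age (n = 3) and H mice had HFD for 12 weeks to the same age (n = 3). The 26-week-old groups of this arm were CC_s, which never had HFD (n = 3), and HC, which had HFD for 12 weeks and then chow for 8 weeks (n = 3). In the long arm, CC_l mice on chow and HH mice after 25 weeks of HFD were 31 weeks old (n = 2 each), and CCC mice on chow and HHC mice with 8 weeks of chow after 25 weeks of HFD were 39 weeks old (n = 2 each). Per the paper, the chow of the controls during the HFD period was a low-fat diet. In the WL period both the controls (CC_s and CCC) and the formerly obese mice received another, standard chow. Control groups of different age within an arm therefore also differ in the chow fed last, and age and chow cannot be told apart. Each library is 1 mouse. The sample labels of the arms carry different prefixes, S086 and S087, whose meaning is not given, so that the arm and whatever the prefix marks cannot be told apart.

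Depth was 10710277 to 36738954 counts per library, and the lowest count of any of the 10 genes in any library was 150, for Pacsin3, so that depth did not limit these values. The adipocyte markers were present throughout: all 10 (Adipoq, Plin1 and Cidec among them) had counts in all 20 libraries. In a pulldown from a whole fat pad, fewer cells of a type and less RNA per cell cannot be told apart. Markers of other cells of the fat pad were present too, all 10 macrophage and all 9 endothelial markers having counts in every library. Their summed levels moved with diet and are given beside the results. 4 libraries stood apart by nuclear-retained RNA (Malat1, Neat1, Meg3 and Kcnq1ot1), namely C 1, C 2, HC 3 and CCC 2, in which these RNAs summed to 20400 to 37600 CPM against 2790 to 12400 CPM in the other 16. The library CC_l 1 held 3110 CPM of male germ cell markers, against at most 434 CPM in any other.

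Levels are given as log2 CPM (counts of a gene scaled to library size with TMM factors, on the log2 scale), 1 value for each mouse. A gene was called a DEG at a nominal p under 0.01 together with a log2 fold change of at least 1 in size, the limits that the study used, in edgeR's quasi-likelihood test over all 20 libraries. The p-value adjusted over all 21464 genes by the Benjamini–Hochberg method is given beside it.

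Per kilobase of coding transcript, Fabp4 was the most abundant of the 10 genes in the 10 mice that were always on chow, with a median of 15.49 log2 CPM per kb (range 12.62 to 16.82), and ranked 1 among 16260 tested coding genes. Lpl followed at a median of 10.82, then Cav1 at 9.66, Cd36 at 9.37, Cav2 at 8.27, Acsl1 at 7.81 and Fabp5 at 6.72 log2 CPM per kb. Slc27a1 (5.54), Angptl4 (5.37) and Pacsin3 (4.91 log2 CPM per kb) stood lowest. Apart from Fabp4 and Lpl, whose ranges were separate, every neighbour in this order overlapped the next in its range over the 10 mice. Together the 10 genes took 2.72% to 9.62% of all counts of a library, and Fabp4 alone took 0.691% to 8.43%.

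**Figure D1:**
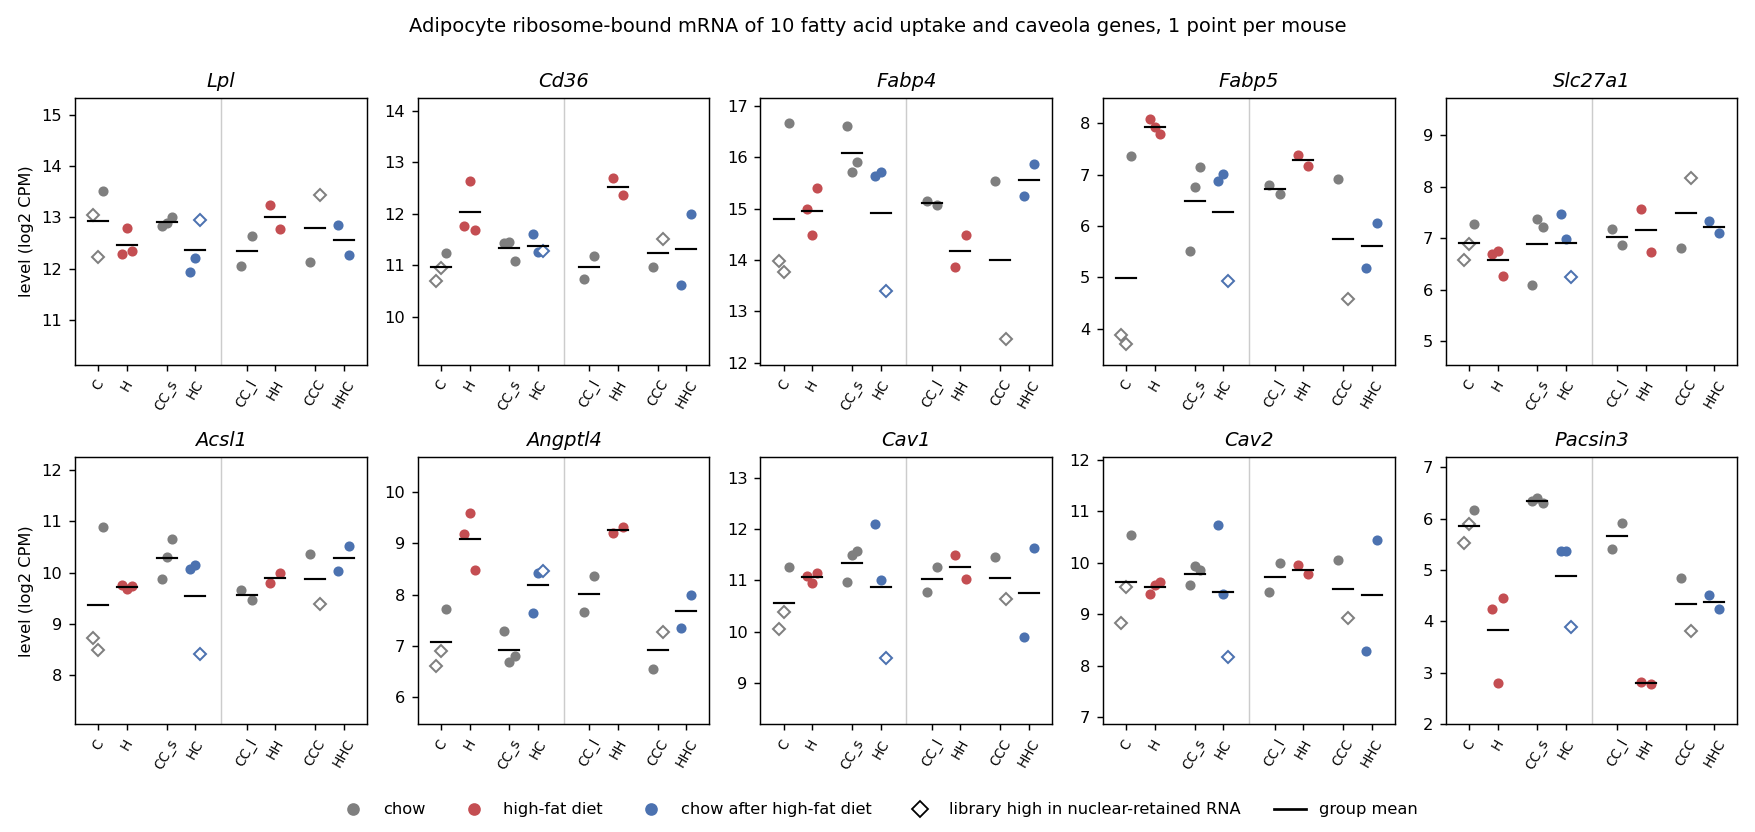
Level of each of the 10 genes in log2 CPM (vertical axes, which differ between panels but all span at least 5.2 log2 units) by group, 1 point per mouse, with the group mean as a bar. Open diamonds mark the 4 libraries rich in nuclear-retained RNA. Angptl4 sits higher in the 3 H mice (8.49 to 9.59) than in the 3 C mice (6.62 to 7.73), and Pacsin3 sits at 2.79 and 2.83 in the HH mice.

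Lipoprotein lipase and its inhibitor were taken first. Angptl4 (mm10, chr17:33773750-33781830, minus strand) was at 6.62, 6.91 and 7.73 log2 CPM in the C mice and at 9.19, 9.59 and 8.49 log2 CPM in the H mice. All H mice were above all C mice, and the log2 fold change was 1.99 ± 0.43 (SE), a 3.98-fold upregulation (adjusted p = 0.0240 by edgeR). Without the 4 libraries rich in nuclear-retained RNA it was 1.54, short of the call, with 1 mouse left in C. It was called in the 13 other alternatives, at 1.72 to 2.39, with adjusted p from 2.95e-05 to 0.13 over all 14.

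After WL from the short diet, Angptl4 was at 7.65, 8.43 and 8.46 log2 CPM in the HC mice against 7.29, 6.69 and 6.80 in the CC_s mice, with no overlap. The log2 fold change of 1.28 ± 0.42 was called at the nominal limit and not after adjustment (adjusted p = 0.536 by edgeR). The call was lost without CC_s 2 (1.16), CC_s 3 (1.21), HC 2 (1.16) or HC 3 (1.14). The HC effect was smaller than the H effect by 0.72 on average, but the 95% interval of this difference, from -1.96 to 0.53, covered 0 (adjusted p = 0.709, edgeR interaction term).

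In the long arm, Angptl4 was at 9.21 and 9.32 log2 CPM in the HH mice against 7.67 and 8.37 in the CC_l mice, a log2 difference of 1.21 ± 0.52 that was not called (adjusted p = 0.242 by edgeR) and was 0.91 without CC_l 1. DESeq2 (1.22) and the fit of the compared groups alone (1.29) called it. In the HHC mice it was at 7.35 and 8.00 against 6.56 and 7.28 in the CCC mice, a log2 difference of 0.75 ± 0.51 (adjusted p = 0.625 by edgeR). In each of the 4 comparisons, every mouse that had ever been on HFD was above every control of its age. Over all tested genes, the groups did not overlap, in either direction, for 25.1% in H, 13.8% in HC, 55.3% in HH and 28.8% in HHC. Between the chow controls of this arm no change was called, but CCC against CC_l had a log2 difference of -1.1 (adjusted p = 0.432 by edgeR), and the HHC mice at 39 weeks lay within or below the CC_l range at 31 weeks. CCC and CC_l differ in both age and the chow fed last.

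Lpl itself (mm10, chr8:68880491-68907448, plus strand) was called in none of the 4 comparisons. It was at 13.05, 12.22 and 13.52 log2 CPM in C and at 12.28, 12.79 and 12.34 in H, with a log2 difference of -0.53 and a 95% interval from -1.77 to 0.71. The CC_s mice were tightly grouped at 12.83, 12.89 and 13.00 log2 CPM, and the HC mice were spread over 11.94, 12.20 and 12.94 (log2 difference -0.49, interval -1.73 to 0.75). The HH mice, at 13.25 and 12.77, were above the CC_l mice, at 12.06 and 12.64 log2 CPM, but the interval of the difference of 0.65 ran from -0.86 to 2.17. The last pair overlapped, HHC at 12.86 and 12.26 and CCC at 12.14 and 13.43 log2 CPM. Of all 10 genes, Lpl had the narrowest range over the 20 mice, 1.58 log2 units. These data therefore leave room for differences as large as the bounds of each interval.

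Membrane uptake was read from Cd36 and Slc27a1. Cd36 (mm10, chr5:17781690-17888801, minus strand) was at 10.69, 10.94 and 11.24 log2 CPM in C and at 11.77, 12.64 and 11.68 in H. The groups did not overlap, but the log2 difference of 1.12 ± 0.51 missed the call (adjusted p = 0.269 by edgeR). After 25 weeks, the HH mice were at 12.70 and 12.36 log2 CPM against 10.74 and 11.18 in CC_l, again without overlap and again short of the call (log2 difference 1.56 ± 0.63, adjusted p = 0.215 by edgeR). DESeq2 called it in both arms (log2 differences of 1.05 and 1.56), as did edgeR's likelihood ratio test (1.12 and 1.56). Without CC_l 1, the library with germ cell markers, the HH difference was 1.37.

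After WL, Cd36 was at 11.60, 11.26 and 11.28 log2 CPM in HC against 11.44, 11.45 and 11.09 in CC_s, and the log2 difference was 0.05 with an interval from -1.01 to 1.11. The HHC mice were far apart, at 10.62 and 11.99 log2 CPM, around the CCC values of 10.96 and 11.50. The WL effect was below the HFD effect by 1.07 in the short arm (interval of the difference -2.57 to 0.43) and by 1.36 in the long arm (-3.20 to 0.48), neither of which was called by the edgeR interaction test.

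Slc27a1 (mm10, chr8:71568882-71587302, plus strand) was called in no comparison. It was at 6.58, 6.88 and 7.28 log2 CPM in C, at 6.69, 6.75 and 6.27 in H, at 7.17 and 6.87 in CC_l and at 7.57 and 6.74 in HH. In the WL groups it was at 7.47, 6.99 and 6.25 log2 CPM in HC against 6.09, 7.37 and 7.22 in CC_s, and at 7.33 and 7.11 in HHC against 6.80 and 8.18 in CCC. All 4 pairs of groups overlapped, and the log2 differences were -0.36, -0.01, 0.19 and -0.43 for H, HC, HH and HHC. Their 95% intervals lay within -1.54 and 1.30.

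Acsl1, Fabp4 and Fabp5 act once the fatty acid is inside the cell. Their lowest values, like those of Cav1 and Cav2, lay mostly in the 4 libraries rich in nuclear-retained RNA. All 4 were the lowest 4 of the 20 for Fabp5 (3.71 to 4.93 log2 CPM against 5.18 to 8.09 in the other 16) and for Acsl1 (8.41 to 9.39 against 9.46 to 10.88). For Fabp4, 3 of them were among the lowest 4 (12.46 to 13.99 log2 CPM against 13.87 to 16.66), and the same number held for Cav1 (9.49 to 10.64 against 9.89 to 12.10) and Cav2 (8.17 to 9.52 against 8.29 to 10.74). For Cd36 and Slc27a1 the number was 2, for Angptl4 and Pacsin3 it was 1, and for Lpl it was 0. The part of this RNA in the diet comparisons was not tested beyond leaving these libraries out.

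**Figure D2:**
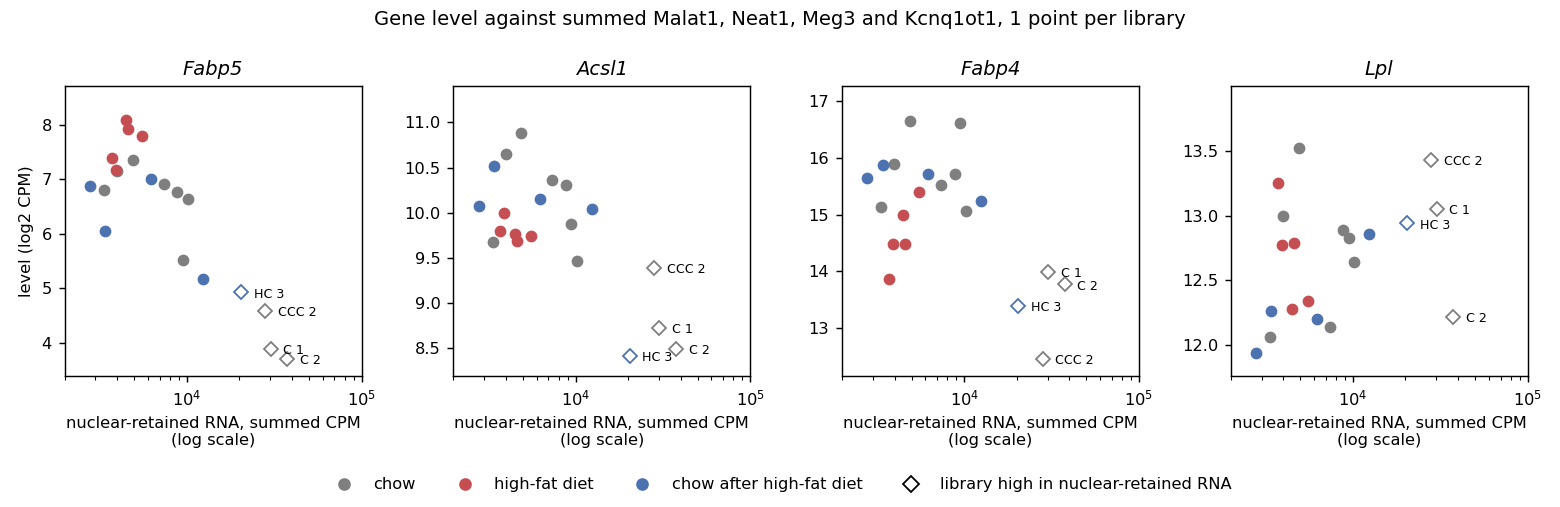
Level of Fabp5, Acsl1, Fabp4 and Lpl in log2 CPM (vertical axes) against the summed CPM of 4 nuclear-retained RNAs (horizontal axes, log scale), 1 point per library. The 4 labelled libraries, at 20400 CPM and above, hold the lowest Fabp5 and Acsl1 values, while for Lpl they lie among the rest.

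Fabp5 (mm10, chr3:10012548-10016607, plus strand) was at 3.89, 3.71 and 7.36 log2 CPM in C and at 8.09, 7.93 and 7.79 in H. The H mice agreed closely and were above all C mice, but C 1 and C 2 are among the libraries rich in nuclear-retained RNA and C 3 was close to H. The log2 difference of 1.94 ± 0.83 missed the call (adjusted p = 0.242 by edgeR). It was 0.69 without the 4 libraries and 4.14 without C 3, so that its size rested on which C mice were counted. The HH mice, at 7.39 and 7.17 log2 CPM, were just above the CC_l mice, at 6.80 and 6.63, with a log2 difference of 0.57 ± 0.98. In WL the groups overlapped, with HC at 6.87, 7.01 and 4.93 against CC_s at 5.52, 6.77 and 7.16 log2 CPM, and HHC at 5.18 and 6.06 against CCC at 6.91 and 4.59. Of the 50-base stretches of Fabp5 transcripts, 5.48% also occur in other genes, mostly the predicted gene Gm6166 (5.10%), so that a small part of its reads is uncertain.

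Fabp4 (mm10, chr3:10204088-10208576, minus strand), a classical adipocyte gene, had the second-widest range of the 10, 4.20 log2 units over the 20 mice, and was called in no comparison. It was at 13.99, 13.77 and 16.66 log2 CPM in C against 14.99, 14.49 and 15.40 in H. The mean of the log2 values was 14.81 in C and 14.96 in H, while the fitted log2 difference was -0.44 ± 1.02, because the fit weighs counts and C 3 holds most of them. Leaving out the 4 libraries gave -1.54, and leaving out C 3 gave 1.12. The HH mice, at 13.87 and 14.49 log2 CPM, were below the CC_l mice, at 15.14 and 15.07, with a log2 difference of -0.89 and an interval from -3.53 to 1.74. After WL, HC was at 15.64, 15.71 and 13.39 log2 CPM, all below the CC_s values of 16.61, 15.72 and 15.90, although 15.71 and 15.72 are practically equal. HHC stood at 15.24 and 15.87 log2 CPM against 15.53 and 12.46 in CCC, a log2 difference of 0.90 that was 3.12 without CCC 1 and 0.06 without CCC 2.

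Acsl1 (mm10, chr8:46471037-46536051, plus strand) was at 8.72, 8.49 and 10.88 log2 CPM in C and at 9.76, 9.68 and 9.74 in H, where the 3 mice were almost the same. The fitted log2 difference was -0.07 (interval -1.33 to 1.18), and it was -1.05 without the 4 libraries and 1.11 without C 3. HH was at 9.80 and 10.00 log2 CPM, just above CC_l at 9.67 and 9.46 (log2 difference 0.34 ± 0.73). HC, at 10.07, 10.15 and 8.41, overlapped CC_s at 9.87, 10.31 and 10.65 log2 CPM, and HHC, at 10.04 and 10.52, overlapped CCC at 10.36 and 9.39. An antisense model, Gm45244, covers 9.91% of the exon bases of Acsl1, and without knowledge of the strand setting their reads cannot be told apart.

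Caveolae were read from Cav1, Cav2 and Pacsin3. The promoter windows of the 3 genes are printed because Pacsin3 carried the clearest diet difference and because Cav1 and Cav2, neighbours on chromosome 6, followed each other across mice. Each window runs from 250 bases before to 50 bases after a RefSeq start site (GRCm38.p6, the assembly of mm10), written 5′ to 3′ on the strand of the gene. Such windows were found for 6 of the 10 genes, Pacsin3, Cd36, Cav2, Cav1, Acsl1 and Slc27a1. The lines show the first of 2 windows of Pacsin3 (chr2:91256563-91256862, plus strand), the window of Cav2 (chr6:17280935-17281234, plus strand) and the first of 2 windows of Cav1 (chr6:17306085-17306384, plus strand).
Pacsin3: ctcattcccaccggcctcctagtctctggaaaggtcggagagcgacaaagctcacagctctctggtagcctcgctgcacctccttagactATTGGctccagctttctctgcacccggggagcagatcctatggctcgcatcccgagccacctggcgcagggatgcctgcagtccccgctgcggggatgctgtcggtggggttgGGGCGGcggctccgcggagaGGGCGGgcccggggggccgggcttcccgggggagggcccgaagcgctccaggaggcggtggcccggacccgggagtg
Cav2: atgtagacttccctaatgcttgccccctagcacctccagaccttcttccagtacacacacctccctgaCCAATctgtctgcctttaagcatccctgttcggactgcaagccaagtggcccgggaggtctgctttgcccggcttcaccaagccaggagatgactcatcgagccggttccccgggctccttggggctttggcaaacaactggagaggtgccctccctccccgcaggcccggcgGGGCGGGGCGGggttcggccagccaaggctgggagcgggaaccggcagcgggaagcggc
Cav1: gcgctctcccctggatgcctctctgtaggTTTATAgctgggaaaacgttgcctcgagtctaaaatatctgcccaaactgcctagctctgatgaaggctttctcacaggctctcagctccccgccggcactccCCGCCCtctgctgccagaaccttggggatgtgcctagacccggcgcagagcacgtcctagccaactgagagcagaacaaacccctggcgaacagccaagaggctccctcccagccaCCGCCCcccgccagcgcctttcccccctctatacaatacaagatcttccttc
Capitals mark the matches, on either strand, to 5 motifs, namely the GC box GGGCGG, the TATA box TATAAA, the CCAAT box, the nuclear receptor half-site AGGTCA and the E-box CACGTG. In the printed windows, Pacsin3 holds 2 GC boxes and 1 CCAAT match. Cav2 holds 2 GC boxes, which overlap by 1 base, and 1 CCAAT match. Cav1 holds 2 GC boxes and 1 TATA match, at -221 from the start site. The second window of Pacsin3 holds 2 GC boxes and none of the other motifs, and that of Cav1 holds none of the 5. Of 32851 RefSeq windows of this length, 35.7% hold GGGCGG, 13.6% TATAAA, 37.4% CCAAT, 16.3% AGGTCA and 7.15% CACGTG. These are matches of letters only, and none of the 3 printed windows holds AGGTCA or CACGTG.

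Pacsin3 (mm10, chr2:91255954-91264679, plus strand) was downregulated in H. It was at 5.53, 5.90 and 6.16 log2 CPM in the C mice and at 4.24, 2.81 and 4.46 log2 CPM in the H mice, with every H mouse below every C mouse. The log2 fold change was -1.90 ± 0.44, to 0.268 of the control level (adjusted p = 0.0333 by edgeR), and Pacsin3 was called in all 14 alternatives, at -2.20 to -1.54. Its adjusted p ran from 0.00018 to 0.162 over them and was under 0.05 in 7.

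After the long diet both HH mice were at the bottom of the Pacsin3 range, with H 2 at 2.81 between them. They were at 2.83 and 2.79 log2 CPM against 5.40 and 5.92 in the CC_l mice, a log2 fold change of -2.89 ± 0.56, to 0.135 of the control level (adjusted p = 0.0244 by edgeR). It was called in all 12 alternatives, at -3.11 to -2.58, with adjusted p from 8.61e-06 to 0.293, and without CC_l 1, the library with germ cell markers, it was -3.11. The HH effect was not shown to differ from the H effect (difference -0.99, 95% interval -2.42 to 0.44, adjusted p = 0.871, edgeR interaction term).

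After the short diet and WL, Pacsin3 was at 5.37, 5.38 and 3.9 log2 CPM in HC against 6.34, 6.4 and 6.30 in CC_s. All HC mice were below the narrow CC_s range, and the log2 fold change of -1.32 ± 0.43 was called at the nominal limit but not after adjustment (adjusted p = 0.536 by edgeR). It was -0.98 without HC 3, which is rich in nuclear-retained RNA, and the call was also lost without CC_s 1 (-1.32), CC_s 2 (-1.29) or CC_s 3 (-1.34). The HC effect did not differ from the H effect beyond its error (difference 0.58, interval -0.69 to 1.85).

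In WL after the long diet, the HHC mice were at 4.51 and 4.24 log2 CPM and the CCC mice at 4.85 and 3.82, and the log2 difference was -0.04 with an interval from -1.15 to 1.06. The HHC effect differed from the HH effect by 2.84 ± 0.75 (interval 1.25 to 4.43, adjusted p = 0.0827, edgeR interaction term), the only interaction called for any of the 10 genes. It passed the nominal limit and not the adjusted one, and without CCC 2, which is rich in nuclear-retained RNA, it was 2.4 and lost the call. The controls, which differ in both age and the chow fed last, also enter this value. CCC against CC_l had a log2 difference of -1.26 that was not called (adjusted p = 0.404 by edgeR). The HHC mice were above both HH mice and below both CC_l mice.

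Cav1 (mm10, chr6:17306335-17341452, plus strand) was called in no comparison. It was at 10.05, 10.39 and 11.26 log2 CPM in C and at 11.09, 10.95 and 11.14 in H, and its log2 difference of 0.40 had an interval from -0.91 to 1.71. It was at 10.78 and 11.26 log2 CPM in CC_l against 11.49 and 11.02 in HH. The WL mice were widely spread, at 12.10, 11 and 9.49 log2 CPM in HC, the lowest being HC 3, which is rich in nuclear-retained RNA, and at 9.89 and 11.62 in HHC, around 10.97, 11.49 and 11.57 in CC_s and 11.46 and 10.64 in CCC.

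Cav2 (mm10, chr6:17281185-17289115, plus strand) showed the same spread. It was at 8.82, 9.52 and 10.54 log2 CPM in C, at 9.39, 9.57 and 9.63 in H, at 9.44 and 10.00 in CC_l and at 9.95 and 9.78 in HH. In the WL groups it was at 10.74, 9.39 and 8.17 log2 CPM in HC (the lowest again HC 3) against 9.56, 9.93 and 9.87 in CC_s, and at 8.29 and 10.44 in HHC against 10.05 and 8.93 in CCC. None of its 4 log2 differences (-0.27, 0.00, 0.12 and 0.14 for H, HC, HH and HHC) was called, and their intervals lay within -1.60 and 1.78.

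Cav1 and Cav2 varied together from mouse to mouse. Over the 16 libraries that did not stand apart, Pearson's r was 0.91 (permutation p = 1e-05, the smallest that 100000 permutations give, adjusted p = 0.00045) and Spearman's rho was 0.82 (permutation p = 0.00013, adjusted p = 0.00585), 45 pairs of the 10 genes having been computed. Without the 2 libraries farthest from the median of Cav1, r was 0.71. Within the arms, r was 0.8 over 9 libraries of the short arm and 0.98 over 7 of the long arm. The values share depth and scaling. Of the 45 pairs, 6 had an adjusted p under 0.05 for r, and the 5 others follow, with r over the 16 libraries and then within the short and the long arm. Fabp4 and Pacsin3 had r 0.81 (adjusted permutation p = 0.00292; 0.88 and 0.62; rho 0.74), and Fabp4 and Angptl4 had r -0.68 (0.0264; -0.72 and -0.76; rho -0.67). Angptl4 and Pacsin3, the called genes, had r -0.76 (0.0099; -0.93 and -0.63; rho -0.75). Cd36 had r 0.75 with Angptl4 (0.0099; 0.75 and 0.82; rho 0.71) and r -0.74 with Pacsin3 (0.0116; -0.90 and -0.82; rho -0.63, adjusted permutation p = 0.0615). Without the 2 farthest libraries these 5 were 0.75, -0.70, -0.63, 0.61 and -0.53. The 4 libraries were left out of all these pairs after the data had been seen. Over all 20 libraries r was 0.92 for Cav1 and Cav2. It fell to 0.55 for Fabp4 and Pacsin3 and to -0.17 for Fabp4 and Angptl4. For Angptl4 and Pacsin3 it was -0.72, for Cd36 and Angptl4 0.76, and for Cd36 and Pacsin3 -0.70. The 16 libraries mix diets and ages, and the permutations ignored the groups, so that these r and p values also hold the differences between groups. The genes most like each of the others over the 20 libraries by Pearson's r were Vldlr for Cd36 (0.93), Mrpl16 for Fabp4 (0.98), Poln for Fabp5 (0.92), Casp8 for Angptl4 (0.86) and Dxo for Pacsin3 (0.94). They were Mamld1 for Lpl (0.80), Acat1 for Slc27a1 (0.83), Caprin1 for Acsl1 (0.92), Rpe for Cav1 (0.95) and Fam136a for Cav2 (0.96). Each is the highest of the tested protein-coding genes with a symbol outside the 10, and is given as a description only.

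**Figure D3:**
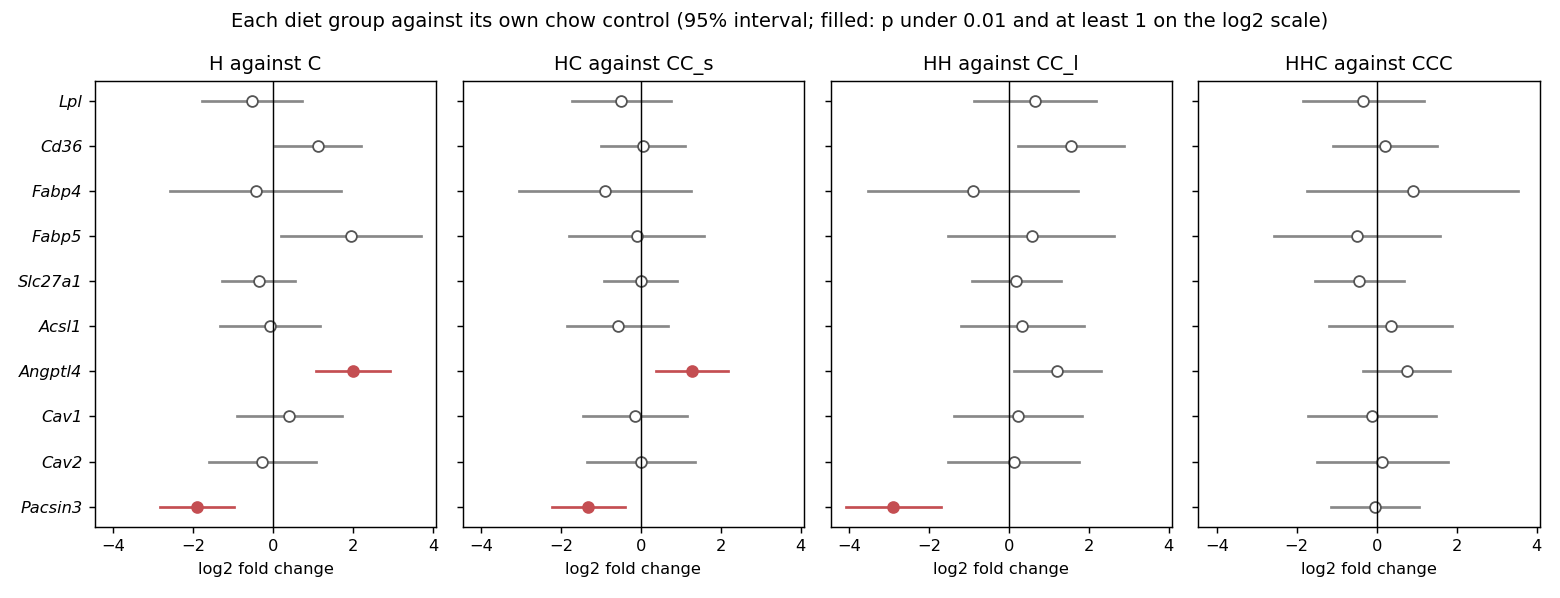
Log2 fold change of the 10 genes (horizontal axes) in H, HC, HH and HHC, each against its own chow control, with 95% intervals from the edgeR fit as lines. Filled points are called: Angptl4 at 1.99 and Pacsin3 at -1.90 in H, Angptl4 at 1.28 and Pacsin3 at -1.32 in HC, and Pacsin3 at -2.89 in HH.

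Counted over the set, 2 of the 10 genes were called in H, where 6.49% of all tested genes were called, and 2 in HC, where 1.74% were. Because the list was drawn up with earlier results of these data known, these shares are a description and not a test of the set. By direction, 1 was higher and 1 lower in each, with backgrounds of 3.57% and 2.92% in H and of 1.57% and 0.172% in HC. In HH 1 of 10 was called, lower, against a background of 6.79% (4.92% higher and 1.88% lower), and in HHC 0 of 10 by edgeR and 0 by DESeq2 against 3.12% (0.447% higher and 2.67% lower). At an adjusted p under 0.05, 2 of 10 passed in H (all genes 2.12%) and 1 in HH (2.07%). At an unadjusted p under 0.05 there were 4 genes in H (all genes 17.1%), 2 in HC (8.69%), 3 in HH (17.4%) and 0 in HHC (10.7%). Of the interactions, 1 of 10 was called for the HHC against the HH effect (background 5.84%, with 1.08% higher and 4.77% lower) and 0 of 10 in each of the other 3 by edgeR (2.99%, 0.913% and 2.88%). The groups did not overlap for 4 of the 10 genes in H (all genes 25.1%), for 3 in HC (13.8%), for 7 in HH (55.3%) and for 1 in HHC (28.8%), so that in HHC the share was below the background. The median log2 difference of the 10 genes was -0.17, -0.13, 0.28 and 0.05 in H, HC, HH and HHC, beside -0.15, 0.27, -0.23 and -0.06 over all tested genes. Between the chow groups, 0 of 10 were called by edgeR and 2 of 10 had an unadjusted p under 0.05 for CCC against CC_l, Angptl4 and Pacsin3 (all genes 11.5%). By the call rule, over all genes 2.45% were called for CC_s against C and 2.66% for CCC against CC_l.

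Other genes of the pathway were read from a list of 51 genes, of which 45 were tested. In H, 5 of the 45 were called higher and 0 lower (all tested genes 3.57% and 2.92%). In HC none was called by edgeR's quasi-likelihood test (1.57% and 0.172%). The likelihood ratio test and DESeq2 each called 3 in HC, and under both tests more of all tested genes were called too. In HH 4 were called higher and 0 lower (4.92% and 1.88%), and in HHC 1 was called higher and 2 lower (0.447% and 2.67%). The median log2 difference of the list was 0.27, 0.18, -0.05 and 0.20 in H, HC, HH and HHC.

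Gpihbp1 encodes the protein that binds lipoprotein lipase and carries it across the endothelial cell. It was at 6.17, 7.01 and 5.91 log2 CPM in C and at 8.87, 9.21 and 9.36 in H, a log2 fold change of 2.72 ± 0.77 (adjusted p = 0.075 by edgeR). In HH it was at 10.28 and 8.26 log2 CPM against 5.97 and 5.40 in CC_l, a log2 fold change of 3.89 ± 0.99 (adjusted p = 0.0518 by edgeR). The HHC mice were at only 2.80 and 5.44 log2 CPM against 6.66 and 7.15 in CCC, and the HHC effect differed from the HH effect by -6.16 ± 1.36 (adjusted p = 0.0419, edgeR interaction term). The call in H was lost without C 1 (2.63), without C 3 (2.51) and without the 4 libraries (3.37), and that in HH without HH 1 (2.56) or CC_l 2 (3.66).

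Endothelial markers moved the same way. The 9 markers summed to 334 to 901 CPM in C and 2120 to 2480 CPM in H, to 224 to 264 CPM in CC_l and 1090 to 2300 CPM in HH, and to 347 to 778 CPM in CCC and 108 to 153 CPM in HHC. Of the 9, 6 were called higher in H, 8 in HH and 0 in HC, and 3 were called lower in HHC. For the HHC against the HH effect, all 9 were called lower (all tested genes 4.77%), with a median log2 difference of -5.04. Several of the 10 genes, Cd36, Lpl, Fabp4, Fabp5, Cav1 and Cav2 among them, are also made by endothelial cells or macrophages. The part of such cells was not tested for Gpihbp1 or for any of the 10, Angptl4 and Pacsin3 included.

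Macrophage markers summed to 218 to 403 CPM in C and 679 to 3690 CPM in H, to 240 to 313 CPM in CC_s and 610 to 1580 CPM in HC, and to 242 to 423 CPM in CC_l and 3820 to 5040 CPM in HH. Of the 10, 7 were called higher in H, 7 in HC and 10 in HH. In HHC, at 796 to 1700 CPM against 827 to 937 CPM in CCC, 0 were called by edgeR. Of the 8 markers of lipid-associated macrophages, 6 were called higher in H, 5 in HC, 2 in HH and 0 in HHC. They summed to 161 to 419 CPM in C against 453 to 1570 in H, and to 321 to 355 in CC_s against 492 to 1750 in HC. In the long arm they summed to 225 to 615 CPM in CC_l against 2030 to 2040 in HH, and to 263 to 584 in CCC against 513 to 964 in HHC. Their median log2 difference was 3.58, 3.56, 2.90 and 0.86 in H, HC, HH and HHC. The adipocyte markers summed to 16700 to 37700 CPM in C against 8990 to 15500 CPM in H, and to 32500 to 42300 CPM in CC_l against 10500 to 14400 CPM in HH. Of these 10, 1 (Lep) was called higher and 3 (Cfd, Adrb3 and Slc2a4) lower in H, and 1 lower in HH. They summed to 19400 to 32300 CPM in CC_s against 5150 to 32400 CPM in HC, and to 25000 to 31900 CPM in CCC against 13500 to 29800 CPM in HHC, with none called by edgeR. The 8 adipocyte progenitor markers summed to 835 to 1920 CPM in C against 1540 to 7500 CPM in H, and to 601 to 1110 CPM in CC_l against 5960 to 9350 CPM in HH, with 4 called higher in H and 6 in HH. In HC, at 1170 to 2300 CPM against 846 to 926 CPM in CC_s, 1 was called higher, and in HHC, at 748 to 1510 CPM against 2040 to 3170 CPM in CCC, 0 were called by edgeR, with a median log2 difference of -1.35. Whether these shifts take part in the Angptl4 and Pacsin3 differences was not tested.

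Vldlr, the receptor for very-low-density lipoprotein and the gene most like Cd36, was upregulated in both HFD groups. It was at 5.95, 5.70 and 5.59 log2 CPM in C against 7.12, 7.73 and 6.72 in H (log2 fold change 1.5 ± 0.38, adjusted p = 0.0496 by edgeR). In the long arm it was at 5.5 and 5.96 log2 CPM in CC_l against 7.67 and 7.44 in HH (1.81 ± 0.47, adjusted p = 0.0549 by edgeR). The H call held in all 14 alternatives, and the HH call in 11 of 12, being lost without CC_l 1 (1.60). In WL it was not called, with a log2 difference of 0.40 in HC and -0.18 in HHC, and the HHC effect differed from the HH effect by -1.99 (adjusted p = 0.149, edgeR interaction term).

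Angptl8, which works with other angiopoietin-like proteins to inhibit lipoprotein lipase, had a negative log2 difference in all 4 comparisons and was called by edgeR in HHC. It was at 6.63, 5.87 and 9.27 log2 CPM in C and at 5.23, 5.15 and 6.26 in H (log2 difference -2.38 ± 0.98, adjusted p = 0.225 by edgeR, and -0.66 without C 3). It was at 4.78, 7.45 and 8.64 log2 CPM in CC_s and at 5.81, 5.87 and 2.42 in HC (log2 difference -2.33 ± 0.98, adjusted p = 0.551 by edgeR). DESeq2 called both of these, at -2.36 and -2.37, as did the fit without a filter, and the H difference was called without the 4 libraries rich in nuclear-retained RNA (-3.52). The HH difference was -0.53 ± 1.14. In HHC it was at 4.09 and 3.46 log2 CPM against 8.63 and 6.86 in CCC, called lower at -4.21 ± 1.30 (adjusted p = 0.276 by edgeR). That call was lost without CCC 1 (-3.06), HHC 1 (-4.57) or HHC 2 (-3.92).

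Among the other caveolar genes, 3 of 10 tested were called higher in H (all tested genes 3.57%) and 1 in HH (4.92%). Ehd4, an ATPase of the membrane-remodelling EHD family, was at 5.83, 5.59 and 5.46 log2 CPM in C against 6.84, 7.07 and 7.11 in H (log2 fold change 1.37 ± 0.44, adjusted p = 0.116 by edgeR). In the long arm it was at 4.90 and 4.84 log2 CPM in CC_l against 7.31 and 6.92 in HH (2.26 ± 0.56, adjusted p = 0.0438 by edgeR), a call that held in all 12 alternatives. The H call held in 7 of 14 alternatives, being lost without C 1 (1.52), C 2 (1.35), C 3 (1.29), H 2 (1.34) or H 3 (1.32).

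Ehd2, which sits at the neck of caveolae, was at 6.48, 6.92 and 7.95 log2 CPM in C and at 8.72, 7.74 and 8.74 in H, called at 1.21 ± 0.41 (adjusted p = 0.142 by edgeR). CC_s was called higher than C by about the same amount (1.23, adjusted p = 0.393 by edgeR). Without the 4 libraries, C 1 and C 2 among them, the H difference was 0.62, and the call was also lost without C 1 (1.01), C 2 (1.07), H 1 (1.07) or H 3 (1.05).

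Pacsin2, the widely expressed relative of Pacsin3, was called in H in the opposite direction to it. Pacsin2 was at 4.02, 4.47 and 4.83 log2 CPM in C and at 5.63, 5.51 and 5.33 in H (1.02 ± 0.34, adjusted p = 0.125 by edgeR), a difference just past the limit that held in 3 of 14 alternatives. The call was lost without C 1 (0.89), C 2 (1.02), H 1 (0.95), H 2 (1.02) or H 3 (1.1). In HH, where Pacsin3 was lowest, Pacsin2 was at 5.56 and 5.41 log2 CPM against 5.36 and 5.08 in CC_l and was not called (0.26 ± 0.41). Cavin1, a coat protein of caveolae, was not called, at a log2 difference of 1.27 ± 0.54 in H (adjusted p = 0.234 by edgeR) and -0.43 ± 0.65 in HH.

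**Figure D4:**
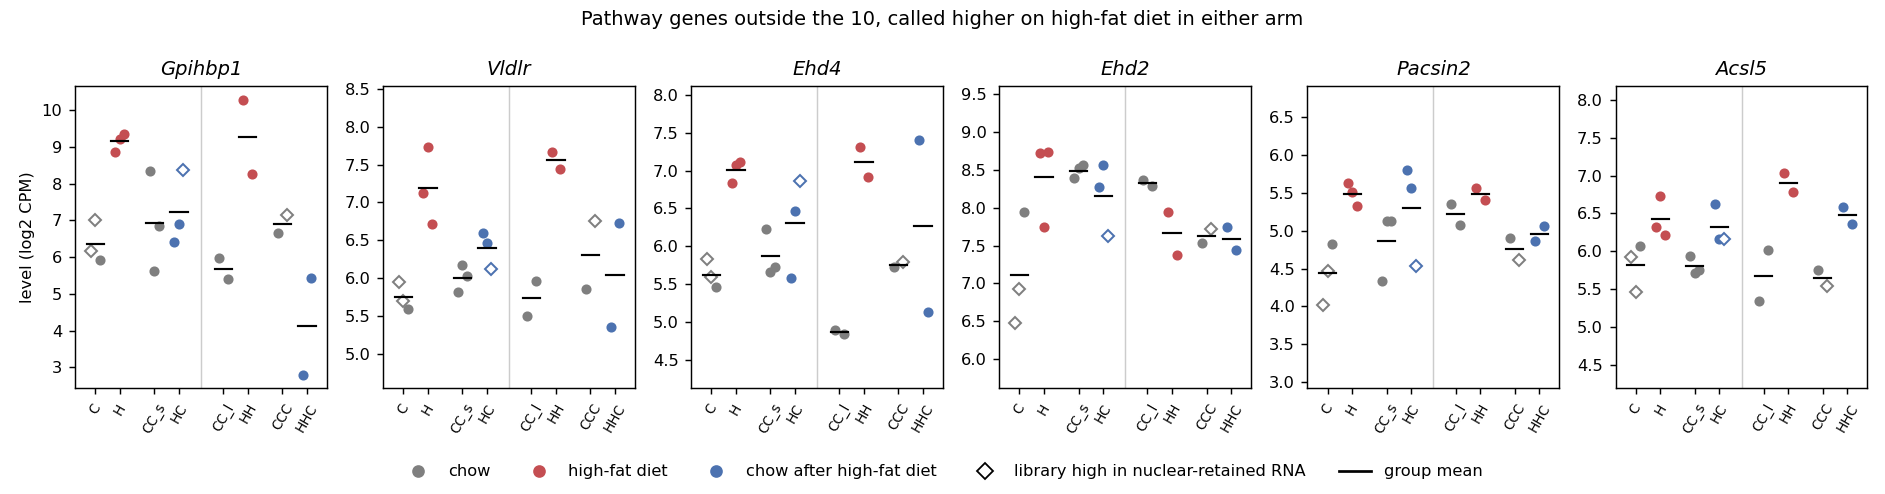
Level in log2 CPM (vertical axes, which differ between panels) of the 6 genes of the pathway list called higher in H or HH, 1 point per mouse, with group means as bars and open diamonds for the 4 libraries rich in nuclear-retained RNA. Gpihbp1 reaches 10.28 in HH and sits at 2.80 in the lowest HHC mouse, and Ehd4 sits at 4.90 and 4.84 in CC_l against 7.31 and 6.92 in HH.

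Of the 5 tested acyl-CoA synthetases besides Acsl1, 1 was called, higher in HH (all tested genes 4.92%). Acsl5 was at 5.34 and 6.01 log2 CPM in CC_l against 7.03 and 6.78 in HH (1.2 ± 0.35, adjusted p = 0.0881 by edgeR), and was not called without CC_l 1 (0.91) or HH 1 (1.09). Of the 9 tested transport proteins and partners of Cd36, Scarb1, a scavenger receptor, was the only one called, lower in HHC (all tested genes 2.67%). It was at 3.79 and 2.99 log2 CPM in HHC against 4.75 and 6.37 in CCC (-2.35 ± 0.69, adjusted p = 0.276 by edgeR), and -1.32 without CCC 2 and -2 without HHC 2. Of the 6 other binding proteins tested, Fabp3 of heart and muscle was called higher in HHC on 1 library alone, with 1368 counts in HHC 1 and 2 in HHC 2 against 4 and 0 in CCC. Without HHC 1 its log2 difference was -0.13, and without CCC 2 it was 7.87.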

How the data were processed

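Ribosome-bound mRNA of epiAT adipocytes from 20 mice in 8 groups was analysed from the gene counts. The authors trimmed the reads with Trim Galore 0.6.6, aligned them to mm10 with HISAT2 2.2.1 and assigned them to genes with featureCounts (Subread 2.0.1), per the labels and the paper's methods, and deposited raw counts, whole numbers without normalization; the gene annotation, the strandedness of counting and whether both mates counted are not given in the sources used here. Because 74.4% to 89.2% of the nonzero counts were even, halved counts were tried as an alternative. Depth was 10710277 to 36738954 counts per library, 3 counts being 0.0817 to 0.280 CPM.

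From these, log2 CPM (prior count 2) and fold changes came from edgeR 4.0.16 under R 4.3.3, with filterByExpr, TMM and the quasi-likelihood fit of all 20 libraries in 8 groups. DEGs passed a nominal p of 0.01 and a 1-unit log2 fold change in either direction; Benjamini–Hochberg adjustment ran over all 21464 tested genes. Differences between effects were tested as interaction contrasts. Alternatives were RLE factors, no filter, the likelihood ratio test, DESeq2 1.42.0, only the compared groups, a replicate block, halved counts, leaving out each mouse, and, chosen after seeing the data, leaving out the 4 libraries richest in nuclear-retained RNA. The fit was tested on simulated data. Symbols and positions came from GENCODE vM21 (45229 of 46078 identifiers, 98.2%), and lengths were those of the longest basic coding transcript. The rule named all 10 genes, other genes of the pathway list that were called in any of the 4 diet comparisons or that work with 1 of the 10, and, for each of the 10, the gene most like it. The genes, lists and marker sets were chosen with earlier results of these data known. Correlations of same-numbered deviations from the group means ran from -0.28 to 0.19. With 2 or 3 mice a group, such deviations are tied to each other. They cannot decide whether the replicate numbers mark a shared block.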

Additional observations from a re-analysis of the deposited data

Results flagged for a closer look

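The HHC effect on Pacsin3 differed from the HH effect by 2.84 on the log2 scale (SE 0.75, adjusted p = 0.0827, edgeR interaction term): Pacsin3 was at 2.83 and 2.79 log2 CPM in HH against 5.40 and 5.92 in CC_l, and at 4.51 and 4.24 log2 CPM in HHC against 4.85 and 3.82 in CCC. It is listed because 2 effects under the same kind of contrast differed by a test of the difference itself, at the nominal limit. With 2 mice a group and a CCC level 1.26 log2 units under CC_l on average, both the HFD mice and the chow controls enter this value.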

How the results depend on the processing

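No called log2 fold change of the 10 genes changed sign: of 48 values under other settings 42 stayed called, and of 36 values with 1 mouse left out 27 did. Of the values not called, 30 of 280 and 32 of 172 changed sign. In H, the 2 called genes became 4 with DESeq2 (Cd36 and Fabp5 added), 1 without the 4 libraries rich in nuclear-retained RNA, 3 with the likelihood ratio test (Cd36 added), 3 without a filter (Fabp5 added), and 2 to 3 with 1 mouse left out (3 without C 3, Fabp5 added). In HC, the 2 called genes became 1 when the fit held the compared groups alone, 0 without those 4 libraries, 0 at an adjusted p under 0.05 and 0 to 2 with 1 mouse left out. In HH, the 1 called gene became 2 with the likelihood ratio test, 2 with only the compared groups, 3 with DESeq2 and 2 without those 4 libraries. For the HC against the H effect, 0 became 1 without a filter (Fabp5, -2.13) and 0 to 1 with 1 mouse left out (Fabp5, -4.25 without C 3); for the HHC against the HH effect, 1 became 0 to 1 (0 without CCC 2); for the HH against the H effect, 0 became 0 to 1 (Fabp5, -3.58 without C 3). The cause was not tested. The replicate block took the called genes in HC from 2 to 0 (Angptl4 1.24 and Pacsin3 -1.32) and changed no other count of called genes among the 10. Whether the replicate numbers mark a shared block is not known.

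Over all tested genes, the calls in H went from 1392 to 2492 without a filter, 2092 with the likelihood ratio test, 2252 with DESeq2 455 at an adjusted p under 0.05, 901 without H 1 and 757 without H 2. In HC they went from 374 to 1764, 972, 970 and 0 under the same settings, 243 with the compared groups alone, 204 with the replicate block, 239 without the 4 libraries and 160 to 597 with 1 mouse left out (160 without CC_s 3, 597 without HC 1). They went in HH from 1458 to 2879 without a filter, 2385 with DESeq2, 445 at an adjusted p under 0.05, 2472 without the 4 libraries, 569 without CC_l 1 and 654 without HH 1. In HHC they went from 669 to 1266 without a filter, 1190 with the likelihood ratio test, 1269 with DESeq2, 0 at an adjusted p under 0.05, 218 with the compared groups alone, 375 with the replicate block, 220 without the 4 libraries, 1194 without CCC 1 and 138 without CCC 2. Among the other pathway genes (45 tested, and 51 without a filter), the 5 called higher and 0 lower in H became 9 and 1 by likelihood ratio, 7 and 2 by DESeq2, 8 and 2 without a filter, 3 and 2 without the 4 libraries, and 2 to 7 higher with 1 mouse left out (2 without C 1, C 2 or H 3, and 7 without C 3). The 0 and 0 in HC became 3 and 0 by likelihood ratio, 2 and 1 by DESeq2, and 3 and 1 without a filter. The 4 and 0 in HH became 4 and 2 without a filter, 6 and 1 with the compared groups alone, 7 and 2 without the 4 libraries, and 2 and 0 without CC_l 1 or HH 1. The 1 and 2 in HHC became 1 and 4 with DESeq2 and without CCC 1, and 0 and 1 without CCC 2 or HHC 1. RLE factors moved the median over all genes by -0.10 in H and 0.13 in HHC, and halved counts by 0.16 in HHC. Groups held 2 or 3 mice, and the parts of depth and of the spread between mice in these counts were not tested.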
